A study of Mus musculus with 9 samples.

Results

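Serpins are a superfamily of proteins of which most inhibit proteases. An inhibitory serpin offers an exposed reactive centre loop as bait. The protease cuts the loop, and the cut loop folds into the body of the serpin, drags the protease along and leaves it distorted and covalently trapped. The clade B serpins (Serpinb genes) lack a classical signal peptide and act mostly inside cells, where leukocytes use them against proteases of their own granules and of cytotoxic lymphocytes, while serpins such as C1 inhibitor (Serping1) are secreted into plasma.

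The serpin genes described here are Serpinb1a, Serpinb2, Serpinb6a, Serpinb6b, Serpinb8, Serpinb9, Serpinb9b and Serping1, 8 of the 55487 genes counted and 8 of the 67 serpin genes considered by symbol. They were chosen by name with earlier results of these same libraries known, and Serpinb1a was selected on its fold changes, which run in opposite directions in the edited macrophages. The changes of these genes are therefore given as descriptions, with standard errors. Where a listed gene is said to be called, its adjusted p in the fit over all genes passed the threshold, which restates the choice and supports nothing. Of the 8 genes, 7 had at least 1 count in a library and 6 passed the filter on low counts.

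RNA was sequenced from unstimulated RAW264.7 cells, a mouse macrophage line, with 3 libraries of each genotype. Wild-type cells were unedited RAW264.7 cells. In ΔTAD macrophages, CRISPR/Cas9 had removed the transactivation domain of C/EBPδ (CEBPD) from both alleles, so that a C/EBPδ without this domain is made from the gene's own promoter. Knock-out macrophages were clones of the same editing in which the deletion had shifted the reading frame. The edited cells were grown from single cells. For its stimulation experiments the paper names individual clones of every genotype, wild-type included. Whether the sequenced wild-type libraries came from clones is not given. The series text speaks of 3 independent clones, but no label ties a library to a clone. P-values therefore measure the spread between libraries, which may be technical. Between 16113306 and 20981829 counts fell on genes, and a count of 3 corresponded to 0.143 to 0.186 CPM (counts put on 1 scale for all library sizes), the level taken as the floor. Cebpd itself was at 6.51 ± 0.674 CPM (SD, n = 3) in wild-type, 5.44 ± 0.201 CPM in knock-out and 5.43 ± 0.668 CPM in ΔTAD libraries. Most of its transcript lies outside the deletion, so this count checks no genotype. All 8 macrophage markers examined were detected, with a summed level of 3454 to 3641 CPM in wild-type, 4592 to 4971 CPM in knock-out and 7088 to 7267 CPM in ΔTAD libraries, Lyz2 being the most abundant. The part of this difference in the serpin levels was not tested. All 3 T cell markers were at 0 in every library, and those of B cells, NK cells, fibroblasts and epithelial cells summed to at most 0.489 CPM for each cell type. Of the neutrophil markers, only S100a8 exceeded 3 counts in a library.

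The reactive centre loop decides which protease a serpin can trap, and its coding sequence is therefore the part of these genes that bears on their targets. It is shown for the 6 members that passed the filter and for Serpinb1b and Serpinb1c, the paralogs of Serpinb1a in the same cluster. Each stretch of 69 bases was read from the longest coding transcript of GENCODE on GRCm38. It is written 5′ to 3′ in the sense of the gene. Capitals mark the first 9 codons, the conserved hinge by which the loop enters the body of the protein. The lower case holds the following bases, in which the protease cuts. The stretches were located by the start of the hinge in the translated sequence, Glu-(Glu or Gln)-Gly-Thr-Glu. Likeness in the codons of this pattern therefore follows from the search.
Serpinb1a, chr13:32842908-32842976, minus strand: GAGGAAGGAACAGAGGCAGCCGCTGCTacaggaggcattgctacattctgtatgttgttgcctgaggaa
Serpinb1b, chr13:33093767-33093835, plus strand: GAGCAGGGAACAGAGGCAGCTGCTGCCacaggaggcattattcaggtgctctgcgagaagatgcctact
Serpinb1c, chr13:32881920-32881988, minus strand: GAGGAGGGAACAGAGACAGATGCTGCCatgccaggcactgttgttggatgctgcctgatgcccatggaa
Serpinb6a, chr13:33918131-33918199, minus strand: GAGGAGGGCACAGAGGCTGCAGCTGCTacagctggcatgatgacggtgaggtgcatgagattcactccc
Serpinb6b, chr13:32978201-32978269, plus strand: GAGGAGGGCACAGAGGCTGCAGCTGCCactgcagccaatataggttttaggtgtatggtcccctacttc
Serpinb8, chr1:107607167-107607235, plus strand: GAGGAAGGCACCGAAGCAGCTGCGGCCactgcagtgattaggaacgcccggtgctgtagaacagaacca
Serpinb9, chr13:33015693-33015761, plus strand: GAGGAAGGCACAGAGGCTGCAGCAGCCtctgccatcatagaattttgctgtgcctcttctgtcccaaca
Serpinb9b, chr13:33039796-33039864, plus strand: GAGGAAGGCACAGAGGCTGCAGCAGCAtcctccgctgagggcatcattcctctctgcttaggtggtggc

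Every stretch lies in 1 exon. Serpinb9 and Serpinb9b share 26 of 27 bases of the hinge and 11 of the 42 bases after it, aligned without gaps. Serpinb6a and Serpinb6b also share 26 hinge bases, and 20 of the 42 that follow. Serpinb1a shares 22 hinge bases and 21 of the following bases with Serpinb1c, and 23 and 16 with Serpinb1b. The hinge starts at codon 324 in Serpinb9 and Serpinb9b, but their coding sequences hold 374 and 377 codons. In Serpinb1a and Serpinb1b it starts at codon 328 of 379 and 382. Gaps within the compared bases were not looked for, so the counts after the hinge may understate likeness. Part of the hinge counts follows from the search pattern. A read of 50 bases could tell most of each transcript apart. Of all windows of 50 bases in the transcripts of Serpinb1a, 2.81% occur in another gene on either strand. Of these 64 windows, 46 occur in Serpinb1c and 44 in Serpinb1b, and a window can occur in both. The share of windows found in another gene was 2.92% for Serpinb6b, 0.165% for Serpinb8, 0.378% for Serpinb9 and 5.38% for Serpinb9b. Of the 180 shared windows of Serpinb9b, 164 occur in Gm36099, an overlapping gene on the opposite strand with at most 4 counts in a library. The share was 25.1% for Serpinb6a, whose annotated transcripts overlap those of Nqo2 and Ripk1 on the opposite strand.

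Serpinb1a (ENSMUSG00000044734, chr13:32842092-32851185, minus strand), the mouse counterpart of the inhibitor of neutrophil elastase, cathepsin G and proteinase 3, had the widest range of the listed genes as a fold between libraries. Wild-type libraries held 239, 174 and 173 counts, or 11.9, 10.1 and 10.5 CPM after scaling by TMM, a factor per library that aligns the bulk of the genes. Knock-out libraries held 807, 675 and 780 counts, or 42.5, 40.7 and 44.1 CPM. In ΔTAD macrophages there were 43, 87 and 95 counts, or 3.01, 4.17 and 4.52 CPM. The 3 genotypes did not overlap, with every knock-out library above and every ΔTAD library below all wild-type libraries. The level was 3.91-fold higher in knock-out than in wild-type macrophages (log2 fold change 1.97 ± 0.080, SE, n = 3 libraries each) and 2.71-fold lower in ΔTAD macrophages (−1.44 ± 0.121). Knock-out macrophages exceeded ΔTAD macrophages 10.6-fold (log2 fold change 3.41 ± 0.096). Opposite directions in the edited genotypes were called for 99 genes that were higher in knock-out and lower in ΔTAD macrophages, and 8 of these, Serpinb1a among them, changed by at least 1 on the log2 scale in both. This count restates the property for which Serpinb1a was selected.

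**Figure D1:**
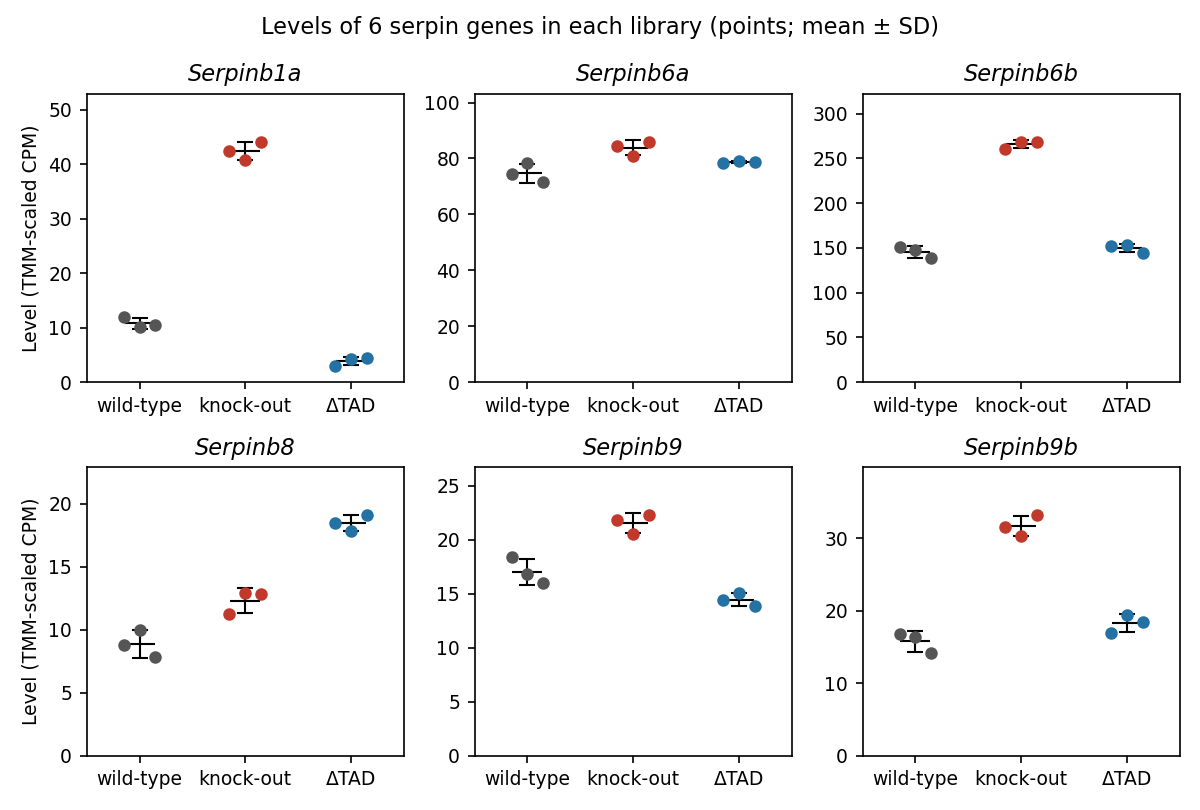
Level of each of the 6 listed serpin genes that passed the filter, in TMM-scaled CPM on linear axes that start at 0, against genotype. Points are the 3 libraries of a genotype and bars the mean ± SD; Serpinb1a runs from 3.01 CPM in a ΔTAD library to 44.1 CPM in a knock-out library, while Serpinb6a stays between 71.6 and 86.0 CPM.

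Serpinb6b (ENSMUSG00000042842, chr13:32965209-32979067, plus strand), a rodent relative of the SERPINB6 gene that is known to inhibit granzyme A, was the most abundant serpin per kilobase of exon in every genotype. Its levels were 151.2, 148.2 and 138.3 CPM in wild-type, 260.6, 267.9 and 268.7 CPM in knock-out and 152.3, 152.7 and 144.6 CPM in ΔTAD libraries. Knock-out libraries lay above all others, and ΔTAD and wild-type libraries overlapped. Against wild-type the log2 fold change was 0.86 ± 0.039 for knock-out and 0.04 ± 0.039 for ΔTAD libraries, and the sign of the latter turned with the scaling and on leaving out ΔTAD replicate 1.

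Serpinb6a (ENSMUSG00000060147, chr13:33917918-34002794, minus strand), the counterpart of human SERPINB6 and an inhibitor of cathepsin G, varied least as a fold. It was measured at 74.3, 78.3 and 71.6 CPM in wild-type, 84.6, 81.1 and 86.0 CPM in knock-out and 78.3, 79.2 and 78.8 CPM in ΔTAD libraries. The knock-out libraries lay above the others, and the lowest ΔTAD library lay just above the highest wild-type library. Its log2 fold changes against wild-type were 0.17 ± 0.037 for knock-out and 0.08 ± 0.037 for ΔTAD libraries, and with scaling by library size alone the latter was −0.01. Its annotation overlaps Ripk1 and Nqo2 on the opposite strand, which had up to 1884 and 831 counts in a library. Against wild-type, Ripk1 stood at 0.40 in knock-out and 0.52 in ΔTAD libraries on the log2 scale, and Nqo2 at 0.06 and 0.11. Whether the counting used strand is not given in the sources used here, and the part of the overlap in the Serpinb6a values was not tested.

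Serpinb9 (ENSMUSG00000045827, chr13:33003250-33017957, plus strand) inhibits granzyme B and protects cells that meet or carry this protease. Wild-type libraries had 18.4, 16.8 and 16.0 CPM, knock-out libraries 21.8, 20.5 and 22.3 CPM and ΔTAD libraries 14.5, 15.1 and 13.9 CPM. The genotypes stood in the order of Serpinb1a without overlap, at much smaller distances. Its log2 fold change against wild-type was 0.33 ± 0.073 for knock-out and −0.24 ± 0.077 for ΔTAD libraries. The ΔTAD value lay between −0.32 and −0.18 in 16 alternative analyses, and in 11 of them it no longer reached an adjusted p under 0.01.

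Serpinb9b (ENSMUSG00000021403, chr13:33027416-33041884, plus strand), a neighbour and paralog of Serpinb9 that acts on granzyme M, did not follow it in ΔTAD macrophages. Its levels were 16.7, 16.4 and 14.1 CPM in wild-type, 31.5, 30.3 and 33.2 CPM in knock-out and 16.9, 19.3 and 18.5 CPM in ΔTAD libraries. All knock-out libraries were far above the rest, and the lowest ΔTAD library was just above the highest wild-type library. Knock-out macrophages had 2.00 times the wild-type level (log2 fold change 1.004 ± 0.074), and the ΔTAD value was 0.22 ± 0.080.

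Serpinb8 (ENSMUSG00000026315, chr1:107590006-107610484, plus strand), whose human counterpart inhibits the proprotein convertase furin, was the one listed gene that was higher in ΔTAD than in knock-out macrophages. It had 8.81, 10.0 and 7.80 CPM in wild-type, 11.2, 12.9 and 12.8 CPM in knock-out and 18.5, 17.8 and 19.1 CPM in ΔTAD libraries. The genotypes did not overlap and stood in the order wild-type, knock-out, ΔTAD. The ΔTAD level was 2.08-fold that of wild-type (log2 fold change 1.06 ± 0.090), the knock-out value was 0.47 ± 0.098, and knock-out lay below ΔTAD macrophages with −0.59 ± 0.085.

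Serpinb2 (ENSMUSG00000062345, chr1:107511423-107535478, plus strand), plasminogen activator inhibitor 2, an inhibitor of urokinase that macrophages are known to make in quantity after inflammatory stimulation, had 1 count in wild-type replicate 2 and 0 in the other 8 libraries. Serping1 (ENSMUSG00000023224, chr2:84765387-84775444, minus strand), the C1 inhibitor, which blocks the first proteases of the classical complement pathway, had 0 counts in all 9 libraries. A count of 0 allows a level of up to 0.143 to 0.186 CPM, depending on the library, which covers counting error only. Both genes were thus not detectable at this depth in any genotype, and no fold change is given for them. Serpinb2 overlaps another annotated gene on the same strand, which had 0 counts. Of its 2345 windows of 50 bases, 243 (10.4%) occur in that gene. The part of this overlap in the Serpinb2 counts was not tested. The promoter of Serpinb2 is shown because it is the only one of the 6 listed genes with an entry that has a match to each of the motifs searched, CCAAT, named in C/EBP, and TTGCNNAA, the form in which C/EBP proteins are known to bind. It covers the 250 bases before the upstream start in RefSeq (GRCm38.p6), and capitals mark the matches, the first being CCAAT on the other strand.
Serpinb2, chr1:107511173-107511422, plus strand: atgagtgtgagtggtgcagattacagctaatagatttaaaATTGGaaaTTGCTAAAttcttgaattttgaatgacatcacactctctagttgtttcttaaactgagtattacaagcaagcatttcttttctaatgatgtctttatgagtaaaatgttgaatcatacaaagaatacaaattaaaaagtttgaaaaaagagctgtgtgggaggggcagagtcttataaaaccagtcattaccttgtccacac

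Both strands were searched for CCAAT and TTGCNNAA in windows of 300 bases, from 250 bases before to 50 bases after each start. The table of promoters matched 6 of the 8 genes, Serpinb2, Serpinb6a, Serpinb6b, Serpinb8, Serpinb9 and Serpinb9b, with 8 promoters. CCAAT was found in 2 of these, the upstream promoter of Serpinb2 and 1 of 2 of Serpinb6a, against 37.4% of all 32851 promoters in the table. TTGCNNAA was found in 2, both of Serpinb2, against 10.8% of all promoters. The windows of Serpinb6b, Serpinb8, Serpinb9 and Serpinb9b held neither string.

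In knock-out macrophages all 6 listed genes that passed the filter were called higher than wild-type, with a median log2 fold change of 0.67. Of all 14312 genes tested, 45.2% were called in this comparison, 22.8% higher and 22.4% lower, with a median of −0.001. In ΔTAD macrophages Serpinb8 was called higher, Serpinb1a and Serpinb9 were called lower, and 3 were not called, with a median of 0.06. There 49.7% of all genes were called, 26.3% higher and 23.4% lower, with a median of −0.0033. Between knock-out and ΔTAD macrophages 4 were called higher in knock-out, Serpinb8 was called lower and Serpinb6a was not called, with a median of 0.68. For all genes these shares were 33% called, 13.9% higher and 19.1% lower, with a median of −0.028. Since the genes were chosen with these comparisons known, the counts are descriptions and nothing is read from them. The comparisons against wild-type share the wild-type libraries.

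Of the 59 other serpin genes considered, 16 had at least 1 count and 4 passed the filter. They are the serpins left by a choice made with earlier results known, so they form no independent comparison set. Called means an adjusted p under 0.01 in edgeR's quasi-likelihood test over all genes. In each edited genotype 1 of the 4 was called higher and 1 was called lower than wild-type, beside 45.2% of all genes called in knock-out and 49.7% in ΔTAD, and the median log2 fold change of the 4 was 0.14 for knock-out and −0.49 for ΔTAD. When every gene with at least 1 count was tested, 4 of the 16 were called in each edited genotype, beside 6732 of all 26804 genes for knock-out and 7399 for ΔTAD, shares close to that of the serpins. Serpinb1c (chr13:32881434-32898211), a close paralog of Serpinb1a, rose in both. It had 189, 181 and 176 counts in wild-type, 343, 321 and 363 in knock-out and 348, 466 and 461 in ΔTAD libraries. It rose by a log2 fold change of 0.93 ± 0.084 in knock-out (edgeR, adjusted p = 8.51e-10) and 1.17 ± 0.081 in ΔTAD macrophages (edgeR, adjusted p = 6.14e-12). In ΔTAD macrophages Serpinb1c was thus higher and Serpinb1a lower than in wild-type, in libraries that did not overlap for either gene. Serpinb1b, the third gene of this group, had only 18 to 41 counts in a library, and its log2 fold changes of 0.25 ± 0.210 and −0.26 ± 0.223 did not pass the test.

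Serpinf1, pigment epithelium-derived factor, a secreted serpin that inhibits no protease, fell by 0.46 in knock-out and by 0.72 in ΔTAD macrophages on the log2 scale, with adjusted p = 0.00036 and 1.55e-06 in edgeR. Serpinc1, antithrombin, had log2 fold changes of 0.03 ± 0.241 and −0.84 ± 0.270 and was not called, at adjusted p = 0.933 and 0.0101 in edgeR. Between the edited genotypes 0 of the 4 were called by edgeR, beside 33% of all genes, and 0 by DESeq2, beside 3947 of 14312. An unadjusted p under 0.05 in edgeR was reached by 4. It was also reached by at least 6481 of all 14312 genes, the number with an adjusted p under 0.05, and the exact share was not computed. Serpinb1c and Serpinc1 stood just over the threshold in this comparison, at adjusted p = 0.01003 and 0.0114 in edgeR. The count called became 1 without knock-out replicate 3, ΔTAD replicate 2 or wild-type replicate 3. It became 2 without ΔTAD replicate 3 or wild-type replicate 1. In these fits 3852 to 4816 of all genes were called.

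**Figure D2:**
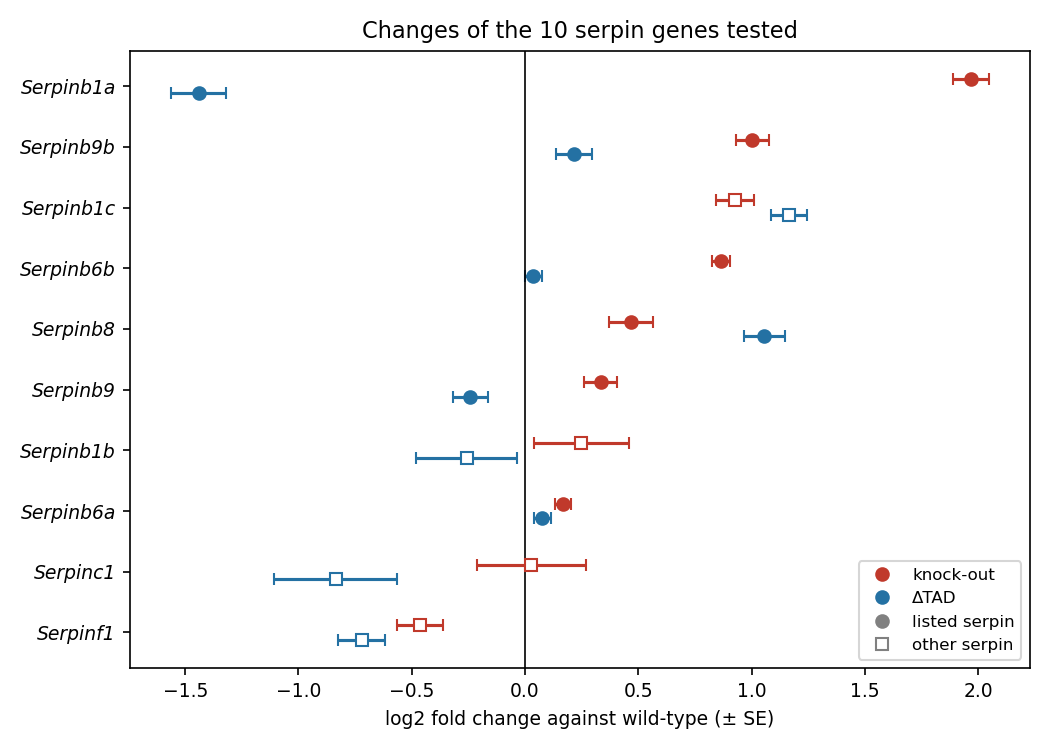
Log2 fold change against wild-type (x axis, ± SE) of the 10 serpin genes that passed the filter, ordered by the change in knock-out macrophages. Red marks knock-out and blue ΔTAD, filled circles the listed genes and open squares the other serpins; Serpinb1a lies at 1.97 and −1.44, Serpinb1c at 0.93 and 1.17, and Serpinf1 left of 0 in both.

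Levels of different genes were compared as CPM per kilobase of exon. The transcripts of the 67 serpins summed to 107.1 ± 4.50 CPM per kb in wild-type (SD, n = 3), to 114 ± 2.02 in ΔTAD and to 187 ± 3.99 in knock-out macrophages. The listed genes made up 88.2%, 84.0% and 90.9% of these sums. Serpinb6b alone accounted for 60.2 ± 0.501% of the serpin sum in wild-type libraries, 63.0 ± 0.831% in knock-out and 58.0 ± 0.744% in ΔTAD libraries. For Serpinb1a, the share was 4.38 ± 0.360% of the wild-type, 9.88 ± 0.299% of the knock-out and 1.49 ± 0.319% of the ΔTAD sum, and for Serpinb1c 5.83 ± 0.578%, 6.34 ± 0.280% and 12.3 ± 0.573%. In ΔTAD macrophages the share of Serpinb1a was thus smaller and that of Serpinb1c larger than in wild-type, in sums that lay close together. In bulk RNA, fewer cells with a transcript and less of it per cell cannot be told apart.

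In wild-type macrophages the order of levels per kilobase was led by Serpinb6b at 64.5 ± 2.99 CPM per kb, Serpinb6a at 13.8 ± 0.619 and Serpinb1c at 6.23 ± 0.408. Serpinb9 at 4.88, Serpinb9b at 4.70, Serpinb1a at 4.69 and Serpinf1 at 4.47 CPM per kb followed, and in each pair of neighbours among these 4 the libraries overlapped. Serpinb8 stood below them at 1.85 ± 0.229. Serpinb1a was second in knock-out macrophages at 18.4 ± 0.740 CPM per kb and eighth of 10 in ΔTAD macrophages at 1.69 ± 0.344, with no overlap with its neighbours in the order. Levels per kilobase depend on the length used. With the longest transcript in place of all exons, Serpinb6a at 38.3 CPM per kb stood above Serpinb1a at 22.1 in knock-out macrophages. With that length the share of Serpinb6a in wild-type was 25.8% instead of 12.9%, and that of Serpinb6b 50.3%.

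**Figure D3:**
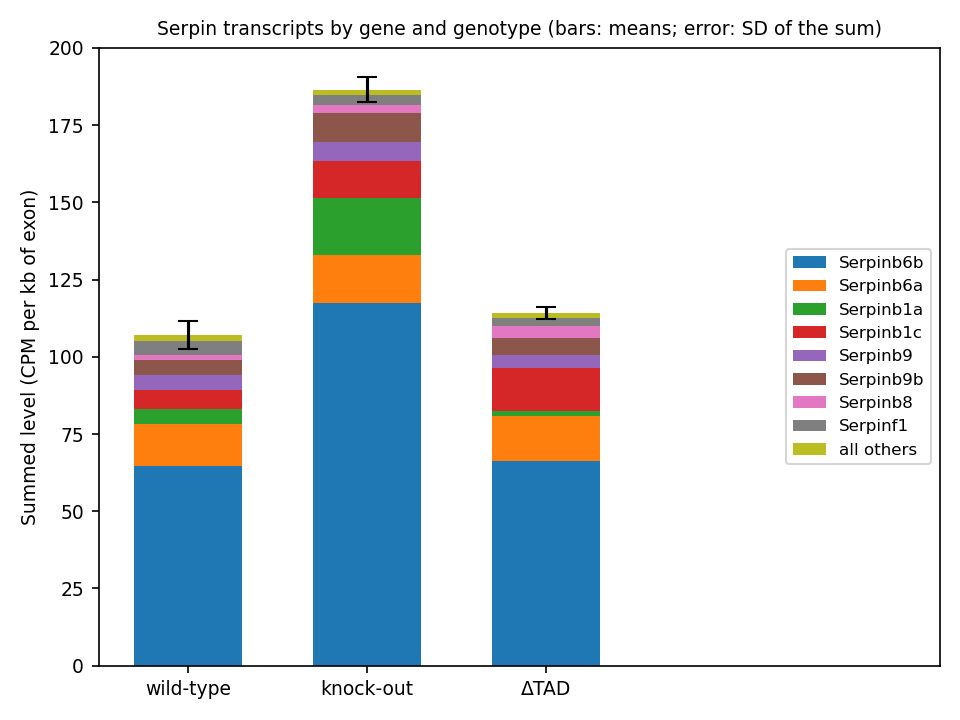
Summed level of serpin transcripts (y axis, CPM per kb of exon) in each genotype, stacked by gene as means of 3 libraries, with the SD of the sum as the error bar. The bars reach 107.1 for wild-type, 187 for knock-out and 114 for ΔTAD, Serpinb6b forms the largest block in each, and the Serpinb1a block is tallest in knock-out macrophages.

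Most of the detected serpins are neighbours. Serpinb1a, Serpinb6a, Serpinb6b, Serpinb9 and Serpinb9b lie with Serpinb1b and Serpinb1c in a cluster of 16 serpin genes that spans 1160.7 kb of chromosome 13, of which these 7 passed the filter. In their order along the chromosome, Serpinb1a, Serpinb1c, Serpinb6b, Serpinb9, Serpinb9b, Serpinb1b and Serpinb6a had log2 fold changes of 1.97, 0.93, 0.86, 0.33, 1.004, 0.25 and 0.17 in knock-out and of −1.44, 1.17, 0.04, −0.24, 0.22, −0.26 and 0.08 in ΔTAD macrophages. Serpinb1a and Serpinb1c, neighbours among the genes tested, thus lay on opposite sides of wild-type in ΔTAD macrophages. Within the cluster and 500 kb on each side, 12 other genes were tested. In knock-out macrophages 3 were called higher and 1 lower (median log2 fold change 0.08), and in ΔTAD macrophages 4 higher and 1 lower (median 0.31), both below the 45.2% and 49.7% called among all genes. Wrnip1, the nearest gene before Serpinb1a, fell by 0.45 in knock-out and by 0.53 in ΔTAD macrophages on the log2 scale, with adjusted p = 1.54e-07 and 9.83e-09 in edgeR. Bphl, the nearest gene after Serpinb6a that does not overlap it, had log2 fold changes of 0.10 ± 0.102 and 0.59 ± 0.096 and was called in ΔTAD macrophages (edgeR, adjusted p = 1.01e-05). Serpinb2 and Serpinb8 lie in a second cluster of 12 serpin genes on chromosome 1, 749.31 kb long, in which only Serpinb8 passed the filter. Of the 5 other genes tested there, 2 were called higher in knock-out and 3 in ΔTAD macrophages, beside 22.8% and 26.3% of all genes called higher, among the latter Vps4b, the nearest, with a log2 fold change of 0.17 ± 0.038 (edgeR, adjusted p = 0.00056). Around Serping1, 14 other genes were tested, of which 4 were called higher and 3 lower in knock-out and 4 and 2 in ΔTAD macrophages, near the 45.2% and 49.7% of all genes, so that the region held detected genes while Serping1 had no count.

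**Figure D4:**
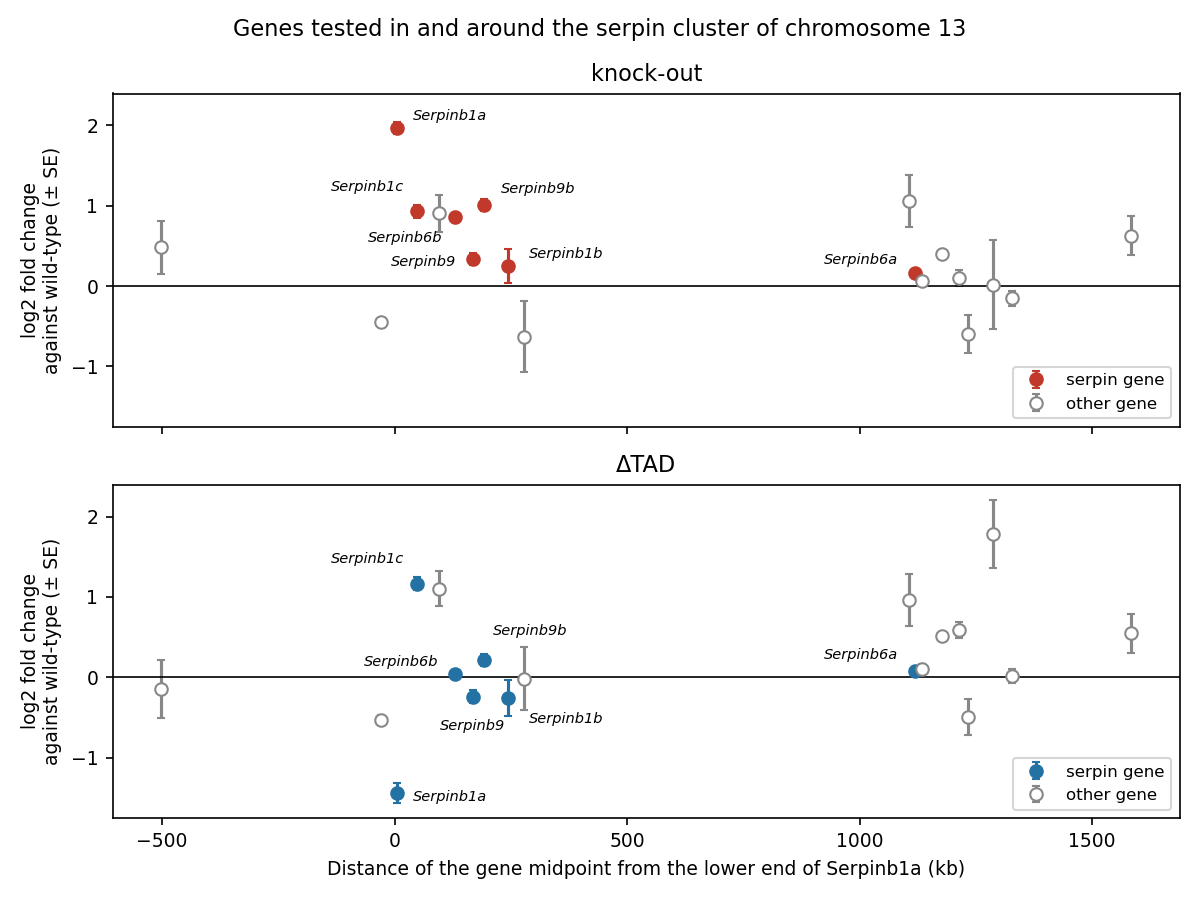
Log2 fold change against wild-type (y axis, ± SE) of the genes tested in and within 500 kb of the serpin cluster of chromosome 13, against the distance of the gene midpoint from the lower end of Serpinb1a in kb. The upper panel is knock-out and the lower ΔTAD, filled points are serpin genes and open points other genes; Serpinb1a is at 1.97 in the upper and at −1.44 in the lower panel, while Serpinb1c beside it is near 1 in both.

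A list of 22 protease genes was examined, of which 15 had a count and 7 passed the filter. It holds known targets of these serpins and the inflammatory caspases Casp1 and Casp4, whose trapping by a listed serpin is not claimed. The granule proteases aimed at by Serpinb1a, Serpinb6a, Serpinb6b and Serpinb9 were at or near 0. Cathepsin G (Ctsg), granzyme A (Gzma), granzyme B (Gzmb) and mast cell chymase (Cma1) had 0 counts in all libraries, neutrophil elastase (Elane) at most 3 and proteinase 3 (Prtn3) at most 4. Granzyme M (Gzmm), the target of Serpinb9b, averaged 0.650 CPM in wild-type, 1.17 CPM in knock-out and 1.15 CPM in ΔTAD macrophages and was not called (edgeR, adjusted p = 0.0397 and 0.0550). In knock-out macrophages 3 of the 7 were called higher and 2 lower than wild-type, with a median log2 fold change of 0.57, beside 45.2% of all genes called. In ΔTAD macrophages 2 were called higher and 3 lower, with a median of −0.21, beside 49.7% of all genes. Between the edited genotypes 2 were called higher and 2 lower in knock-out, beside 33% of all genes. Nothing particular to the proteases is read from these counts.

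Urokinase (Plau), the protease that Serpinb2 inhibits, was abundant and changed in the same directions as Serpinb1a. It had 39210, 31820 and 28710 counts in wild-type, 50294, 45918 and 49143 in knock-out and 14543, 23222 and 23215 in ΔTAD libraries. After scaling the genotypes did not overlap. Plau rose by a log2 fold change of 0.57 ± 0.035 in knock-out (edgeR, adjusted p = 8.47e-13) and changed by −0.77 ± 0.035 in ΔTAD macrophages (edgeR, adjusted p = 1.96e-15). Its receptor Plaur fell in both, by 0.96 and 1.38 on the log2 scale, and Lrp1, the scavenger receptor that clears serpin-protease complexes, rose by 0.54 and 0.72, each with an adjusted p under 0.01 in edgeR. In ΔTAD macrophages Plau and Plaur were thus both lower than in wild-type, while in knock-out macrophages Plau was higher and Plaur lower. Furin, the target of the human counterpart of Serpinb8, fell by 0.30 in knock-out and by 0.28 in ΔTAD macrophages (edgeR, adjusted p = 1.44e-05 and 4.06e-05).

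The inflammatory caspases rose in both edited genotypes. Casp1, which matures interleukin-1β, averaged 23.7 ± 1.26 CPM in wild-type, 39.5 ± 1.54 CPM in knock-out and 47.2 ± 1.47 CPM in ΔTAD macrophages (SD, n = 3), a log2 fold change of 0.74 ± 0.058 and 0.99 ± 0.056 with adjusted p = 7.56e-11 and 1.32e-13 in edgeR. Casp4, known as caspase-11 in the mouse, a sensor of cytosolic lipopolysaccharide, went from 2.21 ± 0.298 CPM in wild-type to 7.88 ± 0.392 CPM in knock-out and 12.7 ± 0.336 CPM in ΔTAD macrophages. Its log2 fold changes were 1.85 ± 0.134 and 2.53 ± 0.122 with adjusted p = 1.69e-11 and 5.46e-15 in edgeR. Both caspases were lower in knock-out than in ΔTAD macrophages, by log2 fold changes of −0.26 and −0.68. Of the complement proteases that C1 inhibitor blocks, C1s1 and Masp1 had no count and C1ra was measured at 1.41 CPM in wild-type without a call. Masp2 fell, changing by −1.25 ± 0.147 in knock-out and −2.16 ± 0.165 in ΔTAD libraries on the log2 scale, with adjusted p = 8.24e-08 and 3.71e-11 in edgeR.

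The genes whose levels were most like those of Serpinb1a were ranked by Pearson's r of log2 CPM over the 9 libraries, among 1829 genes that spanned at least 1 on this scale. Dcstamp, which is needed for the fusion of macrophages into multinucleated cells, came first at r = 0.994, with means of 40.1 CPM in wild-type, 71.2 CPM in knock-out and 26.8 CPM in ΔTAD macrophages. Spp1 (osteopontin) and Sema6d followed at 0.988 each, then the iron exporter Slc40a1 (ferroportin) at 0.985 and Rasal2 at 0.983. Sema6d averaged 0.168 CPM in wild-type, 1.36 CPM in knock-out and 0 CPM in ΔTAD macrophages. Its wild-type and ΔTAD levels thus lie about the floor or under it. Spp1 was at 7203, 10639 and 5014 CPM and Slc40a1 at 39.5, 81.8 and 16.0 CPM in wild-type, knock-out and ΔTAD macrophages. The libraries fall into 3 genotypes, so these values describe likeness of 3 group levels more than of 9 independent points, and all points share library and depth. None of the 5 genes lies on chromosome 13.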

How the data were processed

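Libraries were prepared from ribosome-depleted total RNA and sequenced as single reads of 50 bases. Per the submitters' processing notes, reads were trimmed with Trimmomatic 0.36, aligned with HISAT2 and counted with HTSeq, and the study aligned to GRCm38. The authors deposited 1 list of raw counts per library, with 55487 genes and 5 tally lines, which were left out. The mode and strand setting of the counting are not given in the sources used here. Of all records, 46.65% to 53.23% were counted on genes and 11.78% to 16.28% were not uniquely aligned.

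The analysis used edgeR 4.0.16 (R 4.3.3). The filter was filterByExpr (minimum count 10, total 15) and passed 14312 genes, libraries were scaled by TMM (factors 0.888 for ΔTAD replicate 1 to 1.027), and 1 quasi-likelihood model was fitted to the 9 libraries. Calls have a Benjamini-Hochberg adjusted p under 0.01, and standard errors are the log2 fold change over the square root of F. Groups came from the genotype labels and replicate numbers from the donor labels. Exon lengths and neighbours came from GENCODE M21 (GRCm38), and 55141 identifiers matched a symbol. Steps were run on simulated data with 200 changed genes, far fewer than the genes called here, and nothing is concluded from that run.

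The genes and lists were chosen with earlier results of these data known. Named are the listed serpins, and the other serpins and examined proteases averaging 1 CPM or more in a genotype. Also named are the receptors Plaur and Lrp1, the nearest tested neighbours of each cluster and the 5 genes most like Serpinb1a. Proteases and other serpins under 1 CPM, and the genes that overlap Serpinb6a, were named after their values were seen. Alternatives were DESeq2 1.42.0, other scalings and filters, models of 2 genotypes, a replicate block, a threshold of 0.05, each library left out, and the longest transcript as length. Of the serpin genes, 1 is not reported here and entered no count or sum over serpins.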

Additional observations from a re-analysis of the deposited data

How the results depend on the processing

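The 18 log2 fold changes of the 6 tested listed serpins, 3 comparisons each, were recomputed under 16 alternatives, and 12 kept their direction and their side of the threshold under every one. Those of Serpinb1a lay between 1.93 and 2.06 in knock-out and between −1.56 and −1.35 in ΔTAD macrophages against wild-type. In ΔTAD against wild-type, scaling by library size alone, which moved the median of all genes by −0.0852, gave −0.011 for Serpinb6a and −0.052 for Serpinb6b, and leaving out single libraries gave −0.0024 to 0.066 for Serpinb6b, the lowest without ΔTAD replicate 1. Serpinb9 in ΔTAD against wild-type lost its call under 11 alternatives, among them DESeq2, models of 2 genotypes, the replicate block and 7 of the left-out libraries. Serpinb6a in knock-out against wild-type lost it with library size alone. An adjusted p under 0.05 added calls for Serpinb9b in ΔTAD against wild-type and for Serpinb6a between the edited genotypes. At 0.01, Serpinb9b was also called there with every gene with at least 1 count tested (edgeR, adjusted p = 0.009999). Serpinb6a was also called at 0.01 with only the edited genotypes in the model (edgeR, adjusted p = 0.008421). Of the other serpins, 2 were called in each edited genotype against wild-type, beside 45.2% of all genes in knock-out and 49.7% in ΔTAD. Between the edited genotypes 0 were called by edgeR, beside 33% of all genes, and 0 by DESeq2, beside 3947 of 14312. An unadjusted p under 0.05 in edgeR was reached by 4, and by at least 6481 of all 14312 genes, without the exact share computed. With every gene with at least 1 count tested, where more genes enter the test, the counts of other serpins called were 4, 4 and 2. All genes called there numbered 6732, 7399 and 5121 of 26804. Between the edited genotypes the count was 1 with library size alone, beside 3305 of all 14312 genes. It was 1 with only these genotypes in the model, beside 4470 of 13851, and 1 with the replicate block, beside 4465 of 14312. At an adjusted p under 0.05 it was 2, beside 6481 of 14312. With single libraries left out it was 0 to 2, beside 3737 to 4816 of all genes called. The cause was not tested. Libraries with the same replicate number did not deviate together (r of −0.0717 to 0.0200, and 0 of 9 libraries correlated best with their own number), so the number was not taken as a pairing. The longest transcript in place of all exons moved 8 of 18 levels per kilobase by more than 1 SD. Depth limits Serpinb2 and Serping1, which cannot be told from 0 under 0.143 to 0.186 CPM.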

Other observations

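Some serpins and proteases under the filter on low counts did not enter the main test and are given by their counts. Serpinh1, the collagen chaperone HSP47, which inhibits no protease, was counted 5, 3 and 6 times in wild-type and 0 times in all 6 libraries of the edited genotypes. Plat, tissue plasminogen activator, had 0, 3 and 4 counts in wild-type, 10, 11 and 11 in knock-out and 4, 6 and 9 in ΔTAD libraries. These genes were picked after their values were seen, and at this depth their levels lie close to the floor of 3 counts.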
